A study of Mus musculus with 24 samples.

Results

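GATA1 and the transcription factors that work with it in blood cells were followed at the RNA level in mouse fetal liver cells that carried the short GATA1 isoform and received either miR-125b or a control. The set held 10 genes named for their known partnership with GATA1, chosen with earlier results of these data known and with no rule on their values: Gata1, Gata2, Zfpm1, Tal1, Lmo2, Ldb1, Lyl1, Runx1, Fli1 and Erg. They are 10 of 47069 genes in the deposited count table, and all 10 were among the 13419 genes with enough counts to be tested. Each was found in the table by its Ensembl identifier.

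All libraries came from fetal liver cells (labelled Gata1s-FLCs) taken at mid-gestation (E12.5-13.5) from mice with a Cas9 and EGFP transgene under the CAG promoter at the Rosa26 locus (labelled Gt(ROSA)26Sor). Every group, the controls included, also carried the guide RNA labelled sgGata1, so there is no group with intact Gata1 among these libraries. The second transgene was miR-125b in 12 libraries and miR-ctrl in the other 12. Both arms received doxycycline at 1 µg/mL for 48 h (day 2), for 10 days (day 10) or for 13 days (day 13, labelled continued), or were sampled at day 13 after doxycycline was withdrawn on day 10 (labelled withdrawal). This gave 8 groups of 3 libraries, numbered replicate 1 to 3 in each group. The labels do not say whether a number marks a culture, a litter or a day, so p-values measure the spread between these libraries. They also do not say whether the edited cells were a clone or a pool, nor which promoter drove the second transgene.

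GATA1 binds DNA at GATA motifs and is required for red cells, megakaryocytes (the cells that shed platelets), mast cells and eosinophils. GATA2 occupies many of the same sites earlier, in stem and progenitor cells, and is replaced by GATA1 during maturation. FOG1, the product of Zfpm1, binds the GATA1 amino-terminal zinc finger, and TAL1 or its relative LYL1 joins the GATA factors through the bridging proteins LMO2 and LDB1. RUNX1 and the ETS factors FLI1 and ERG bind beside GATA motifs in megakaryocytes and progenitors. GATA1s lacks the amino-terminal part of GATA1, and in children with Down syndrome mutations that leave only this form accompany transient and leukemic expansion of megakaryoblasts. The human gene for ERG, like that for RUNX1 and for one miR-125b copy, lies on chromosome 21, as the series title states for miR-125b.

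The sequence of the introduced microRNA is shown because its seed, bases 2 to 8 in capitals, defines the sites it could pair with.
mmu-miR-125b-5p: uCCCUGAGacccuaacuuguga
A 7-base match to this seed, CTCAGGG, was looked for in 1 annotated 3′ UTR per gene, the longest. It was present in 2019 of 11678 tested genes with such a UTR (17.3%). Of the 10 factors only Ldb1 had it, with 2 sites on the minus strand of chromosome 19 (GRCm38), both shown because Ldb1 is the one factor of the set that miR-125b could pair with by this rule. Capitals mark the 7-base match, and the first site also has the A after it that completes an 8-base match.
Ldb1 site at chr19:46032185-46032214: gaggttccctccCTCAGGGagcacagaggg
Ldb1 site at chr19:46031873-46031902: agcctgtggaggCTCAGGGtgaggcgagga
No 7-base match was in the longest 3′ UTR of the other 9 genes, which says only that these letters are not in those windows. A shorter match, to bases 2 to 7 only, was in those of Tal1 (2), Gata2 (1) and Runx1 (1), and its share of all genes is not given.

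Promoter windows from RefSeq (GRCm38.p6) covered 250 bases before to 50 bases after a start site, and 8 of the 10 genes matched with 15 windows. Lmo2 and Fli1 are named only. GATA, ETS, RUNX and E-box motifs of the factors themselves, and in addition the CACCC box, were searched on both strands. The letters matched in the 15 windows were AGATAA for GATA factors and CAGGAA or CCGGAA for ETS factors. They were TGTGGT for RUNX, CAGATG or CAGCTG for the E-box bound by TAL1 and LYL1, and CCACCC for the CACCC box. The shares of all promoters cover any searched form of a motif, which need not be these letters. GATA letters were in 3 of the 15 windows against 29.8% of all 32851 promoters, and ETS letters in 5 of the 15 against 41.4%. RUNX letters were in 1 of the 15 (22.4% of all), the E-box in 2 (30.6%) and the CACCC box in 5 (31.5%). Of the 3 Erg windows 1 held both a GATA and an ETS match, at bases -103 and -39 from the start. It is shown because Erg is the factor that was called with miR-125b, beside the Gata1 window, which held an ETS match at -126 and a CACCC box at -53. Both genes lie on the minus strand, and capitals mark the matched letters on the gene's strand.
Gata1 promoter, chrX:7967861-7968160: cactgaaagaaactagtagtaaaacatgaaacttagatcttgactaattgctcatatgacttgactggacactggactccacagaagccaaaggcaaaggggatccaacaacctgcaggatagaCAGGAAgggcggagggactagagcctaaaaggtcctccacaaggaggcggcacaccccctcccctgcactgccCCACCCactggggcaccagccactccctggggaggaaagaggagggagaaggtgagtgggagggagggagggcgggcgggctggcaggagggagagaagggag
Erg promoter, chr16:95459299-95459598: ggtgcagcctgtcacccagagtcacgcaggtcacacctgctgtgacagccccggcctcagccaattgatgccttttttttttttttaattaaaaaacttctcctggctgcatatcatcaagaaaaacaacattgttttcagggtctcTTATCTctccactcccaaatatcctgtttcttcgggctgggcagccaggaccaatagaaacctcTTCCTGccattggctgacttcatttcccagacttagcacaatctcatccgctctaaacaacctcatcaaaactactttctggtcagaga
A match is a description of letters and not a binding site.

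Library totals lay between 14694900 and 23755245 counts, and levels are given as CPM, which corrects the counts for library size with TMM factors. The cells had the markers of megakaryocytes. Itga2b, the platelet integrin subunit, had a median of 1597 CPM and Pf4, a platelet chemokine, 1682 CPM. Defining markers of late red cells were near 0, with Slc4a1 at 0 in 24 of 24 libraries and Alas2 at a median of 0.322 CPM. The liver cell genes Alb and Ttr had no count in 23 and 24 libraries. Arid3a, the target named in the series title, had a mean of 31.8 ± 1.70 CPM (SD, n = 3) with miR-125b at day 10 against 58.5 ± 11 in control. At day 13 it was 52.2 ± 6.15 in the miR-125b libraries labelled continued against 61.0 ± 11.2 in their controls, but 31.2 ± 4.45 in those labelled withdrawal against 69.5 ± 6.20. The lower value thus stood in the miR-125b libraries labelled withdrawal, so the day 13 groups are called by their labels throughout, and no direction of withdrawal is drawn from them. In these bulk libraries fewer cells of a type and less RNA per cell cannot be told apart.

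Gata1, the gene targeted by the guide in all 24 libraries, was read in every one of them. The counts cover the whole gene and do not show whether the full-length or the short product was made. In control its levels were 290, 378 and 279 CPM at day 2 (replicates 1, 2 and 3), 268, 506 and 349 at day 10, 227, 492 and 344 at day 13 labelled continued, and 194, 514 and 359 at day 13 labelled withdrawal. With miR-125b they were 254, 325 and 296 CPM at day 2, 300, 411 and 309 at day 10, 219, 419 and 291 at day 13 labelled continued, and 205, 366 and 213 at day 13 labelled withdrawal. Replicate 2 was the highest library of every group, and the miR-125b and control ranges overlapped in each of the 4 conditions. Group means ran from 261 ± 90.8 CPM (SD, n = 3; miR-125b, labelled withdrawal) to 375 ± 121 (control day 10), a ratio of 1.43.

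Gata2 had the widest spread among the 9 abundant factors. In control its levels were 522, 858 and 500 CPM at day 2, 426, 1053 and 387 at day 10, 343, 896 and 366 at day 13 labelled continued, and 304, 998 and 365 at day 13 labelled withdrawal. With miR-125b they were 428, 723 and 473 CPM at day 2, 313, 819 and 316 at day 10, 331, 866 and 376 at day 13 labelled continued, and 268, 740 and 309 at day 13 labelled withdrawal. Again replicate 2 stood above the other two in every group, and the arms overlapped in every condition. Zfpm1, which encodes the cofactor FOG1, had group means of 337 to 439 CPM and single libraries of 228 to 570 CPM.

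Tal1, Ldb1 and Lmo2 had the narrowest ranges between libraries. Tal1, the partner that reads the E-box, had group means of 319 to 372 CPM, and its highest library exceeded its lowest by 1.32 times. Ldb1, the dimerising scaffold, had group means of 184 to 209 CPM and a ratio of 1.41 between libraries. Lmo2, the bridge between TAL1 and LDB1, had group means of 171 to 210 CPM and a ratio of 1.74. Lyl1, the relative of TAL1, was wider, with group means of 75.5 to 107 CPM and a ratio of 2.46 between libraries. Counting was not stated to use strand, and Ldb1 overlaps the antisense gene Pprc1 (mean 98.2 CPM), Lyl1 overlaps Nfix (36.7 CPM) and Lmo2 overlaps 4931422A03Rik (3.58 CPM), so part of their reads may be exchanged with these genes.

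Runx1 had group means of 141 to 172 CPM and Fli1, the ETS factor of megakaryocyte maturation, 110 to 144 CPM. Erg was of another order, with group means of 0.452 to 6.73 CPM. Per kilobase of exon, which allows genes to be compared, the mean levels over 24 libraries were 133 CPM for Gata1, 110 for Zfpm1, 100 for Gata2, 90.4 for Lmo2, 78.9 for Tal1, 49.5 for Lyl1, 42.4 for Ldb1, 36.5 for Fli1, 13.1 for Runx1 and 0.740 for Erg. When the 8 groups were ordered by mean for each gene, all 7 pairs of neighbours overlapped in range for each of the 10 genes, so no step in any order exceeded the spread of its libraries.

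**Figure D1:**
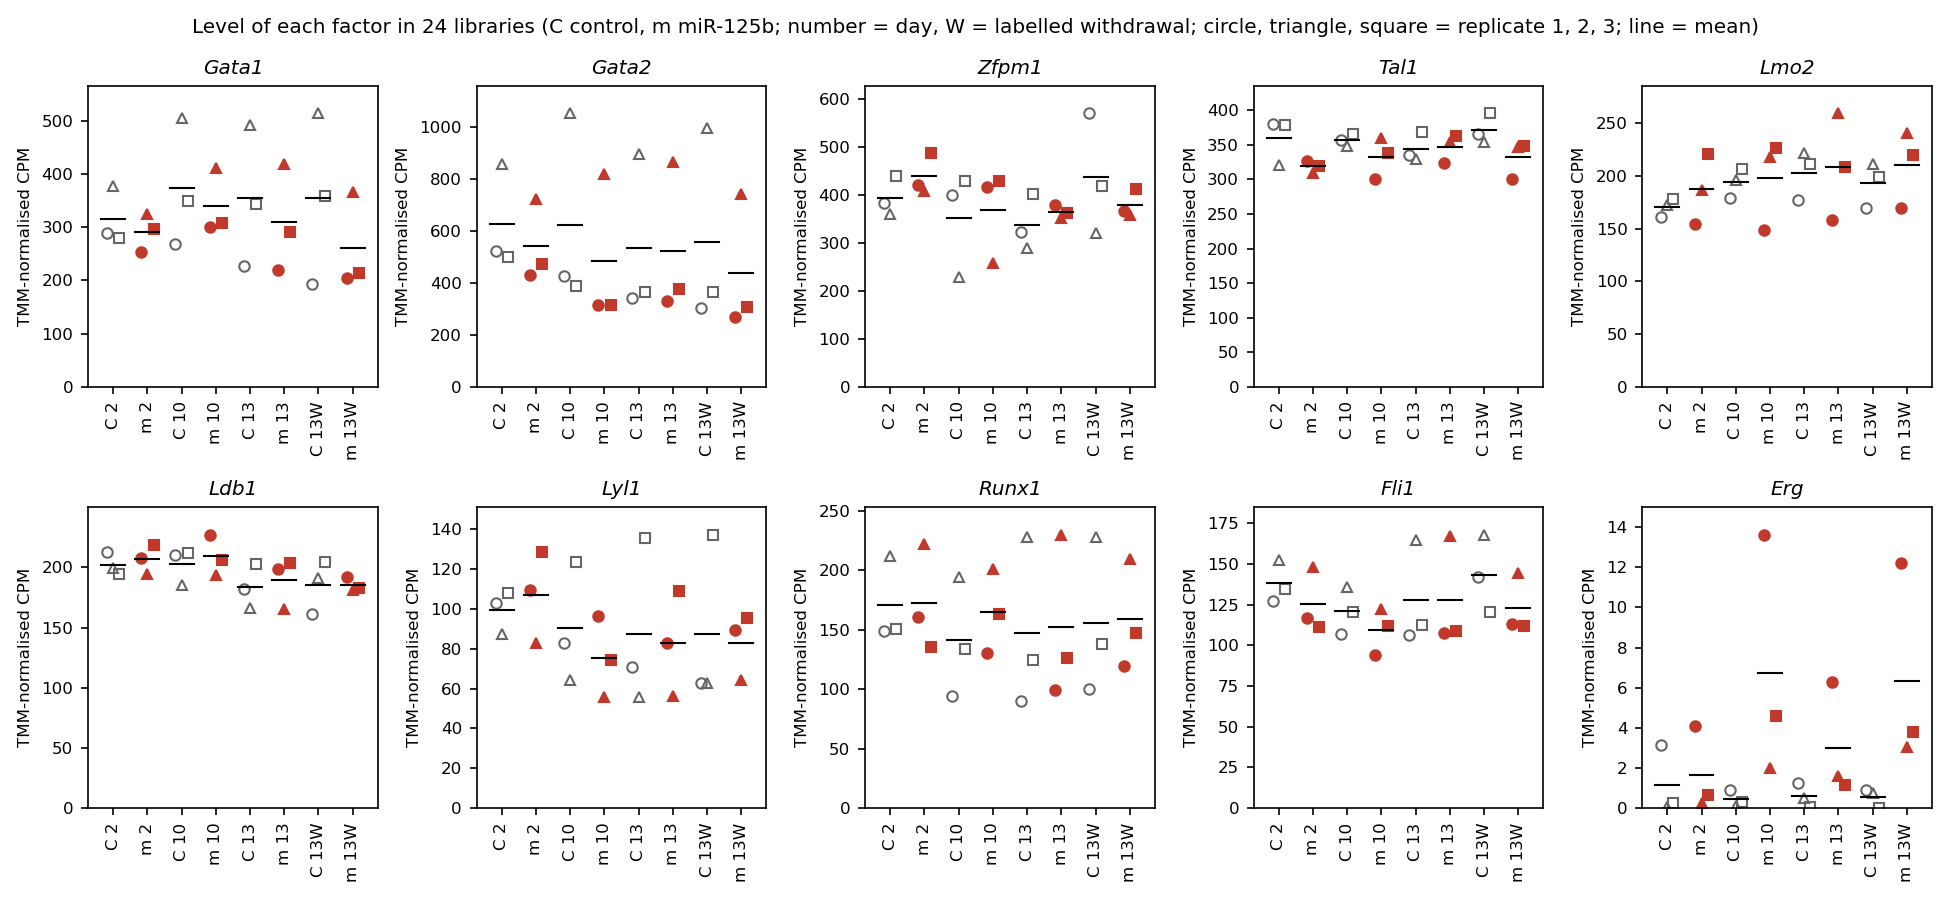
TMM-normalised CPM (linear axis from 0, one scale per panel) of the 10 genes in the 24 libraries, with control in open grey and miR-125b in filled red symbols, the replicate number as symbol shape and the group mean as a line. Replicate 2 (triangles) is highest in all 8 groups for Gata1, Gata2, Runx1 and Fli1, and Erg is above 1 CPM in all 9 miR-125b libraries from day 10 on.

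**Figure D2:**
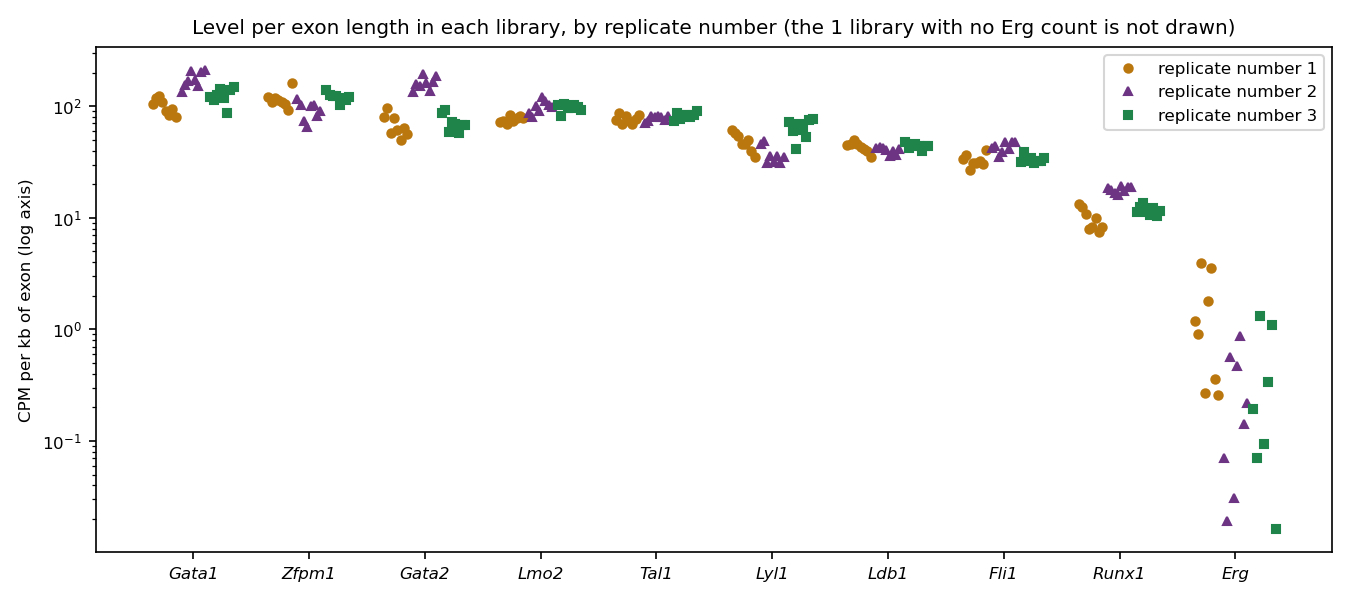
Level per kilobase of exon in each library on a log axis, with the genes ordered by their mean and coloured by replicate number. Mean levels run from 133 CPM per kilobase for Gata1 to 0.740 for Erg, and the library of control day 13 (labelled withdrawal, replicate 3) with 0 Erg counts cannot be drawn on this axis.

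The first comparison asked whether miR-125b changed the level of these factors. Erg, an ETS factor of stem cells and megakaryocyte progenitors, was the one that was called, in the fit that takes the replicate number into account, and it was higher with miR-125b at day 10 and at day 13 labelled withdrawal. Its counts at day 10 were 213, 39 and 85 with miR-125b (replicates 1, 2 and 3) against 19, 2 and 6 in control, or 13.6, 1.98 and 4.59 CPM against 0.924, 0.107 and 0.325. The miR-125b and control libraries did not overlap at day 10, as was the case in the same direction for 9.14% of the 13419 genes. The ratio of the group means was 14.9.

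At day 13 the libraries labelled withdrawal had 226, 52 and 71 Erg counts with miR-125b against 14, 16 and 0 in control, a ratio of mean CPM of 11.5. The control library with 0 counts allows a level of up to 0.129 CPM, taken as 3 counts. These groups did not overlap either (5.77% of genes in this direction). Those labelled continued had 131, 29 and 21 counts against 26, 8 and 1, a ratio of 5.07, and overlapped. At day 2 the counts were 71, 5 and 11 against 58, 1 and 5, a ratio of 1.45, so the arms were close and replicate 1 carried most of the counts in both. In same-numbered libraries Erg was higher with miR-125b in 12 of 12 pairs, a pattern that 0.663% of all genes showed. Intervals and limits from counts cover counting error only.

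The tests gave the same order with different calls. In edgeR's quasi-likelihood fit without the replicate number, 0 of the 10 genes passed an adjusted p of 0.05 at day 10, where 0.872% of all genes did, at day 13 labelled withdrawal (0.119%), or in the mean of the 4 conditions (1.28%). None passed at day 2 or at day 13 labelled continued, where 0% of genes did. At an unadjusted p under 0.05 this fit had 0 of 10 genes at day 2, 1 at day 10 (Erg), 0 at day 13 labelled continued, 1 labelled withdrawal (Erg) and 2 in the mean (Tal1 and Erg). The fit with the replicate number had 1 at day 2 (Tal1), 2 at day 10 (Gata2 and Erg) and 1 labelled continued (Erg). It had 3 labelled withdrawal (Gata1, Fli1 and Erg) and 5 in the mean (Gata1, Gata2, Tal1, Fli1 and Erg). The shares of all genes at this unadjusted threshold are not given. DESeq2 called 0 of 10 in each condition and 1 in the mean, Erg.

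With the replicate number as a block, since same-numbered libraries deviated together, Erg rose by a log2 fold change of 3.93 ± 0.702 (SE) at day 10 (adjusted p 0.00399, against 0.159 without the block) and by 3.47 ± 0.676 at day 13 labelled withdrawal (adjusted p 0.0145, against 0.452). In the mean of the 4 conditions it rose by 2.59 ± 0.345 (adjusted p 0.000162; without the block 2.56 ± 0.670, adjusted p 0.0721). Erg was then the 1 of 10 genes called in each of these 3 comparisons, where the same fit called 8.63%, 1.86% and 6.39% of all genes tested and 4.74%, 0.768% and 3.31% of them as higher. At 1 of 10 genes the share is close to that of all genes at day 10 and in the mean. The number of all genes called with the block at day 10 ranged from 86 without miR-125b replicate 3 to 2175 without miR-125b replicate 2, against 1158 with every library, so that share moves with single libraries. In the mean it ranged from 618 to 1111, against 858. At day 13 labelled continued its value of 2.37 ± 0.702 was not called (adjusted p 0.519, with 0.0149% of genes called), nor was 0.60 ± 0.670 at day 2 (adjusted p 0.824). Leaving out any 1 library kept the blocked call at day 10 in 6 of 6 fits and in the mean in 24 of 24, while labelled withdrawal kept it in 4 of 6. The call there was lost without miR-125b replicate 3 (adjusted p 0.0860) and without control replicate 1 (adjusted p 0.0509). Leaving out every library of replicate 1 or of replicate 3 gave blocked adjusted p-values of 0.0916 and 0.157 at day 10 and of 0.0930 and 0.261 labelled withdrawal, while the mean of the 4 conditions remained called in 3 of 3 such fits. Without the block, the mean for Erg passed when control day 2 replicate 1 was left out (adjusted p 0.0291).

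**Figure D3:**
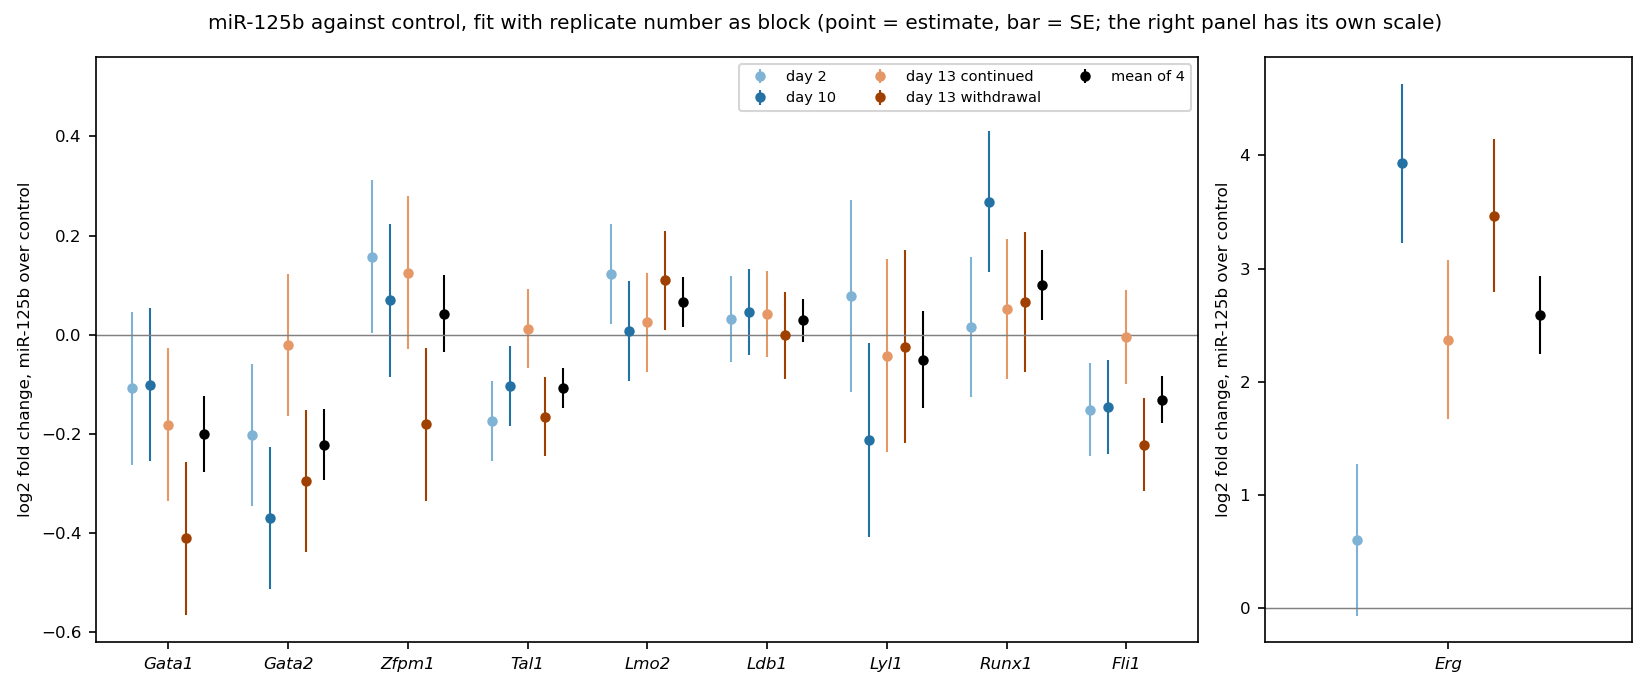
Log2 fold change of miR-125b over control for each gene in 4 conditions and their mean, from the blocked fit, with bars of 1 SE. Erg has its own scale, from 0.60 at day 2 to 3.93 at day 10, while the other 9 genes stay between -0.41 and 0.27.

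Other cell markers moved with the same contrast. The summed level of 8 neutrophil markers was 29.8 to 98.3 CPM in the miR-125b libraries at day 10 and 5.58 to 31.2 CPM in control, mostly Prtn3 (median 23.9 CPM over all libraries), a granule protease of myeloid progenitors, while S100a8 had no count in 11 libraries. Labelled withdrawal it was 41.7 to 59.7 CPM with miR-125b against 6.01 to 40.6 in control, without overlap, and labelled continued 25.4 to 38 against 5.25 to 42.6. The part of these cells in the Erg difference was not tested. Of the markers of endothelial cells, which also express Erg, Cdh5 was at 0.335 CPM or less in every library. Tek and Kdr had counts in every library and reached 21.9 and 6.77 CPM. The summed level of 6 endothelial markers was 5.56 to 23.3 CPM with miR-125b and 6.83 to 24 CPM in control at day 10. The part of endothelial cells in the Erg difference was not tested either.

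The other 9 factors differed little between the arms, and none was called in either fit. Averaged over the 4 conditions with the block, Gata1 had a log2 fold change of -0.20 ± 0.0769 (adjusted p 0.138) and Gata2 of -0.22 ± 0.0717 (adjusted p 0.0721). Gata1 was lower with miR-125b in all but 3 of the 12 same-numbered pairs and Gata2 in all but 1. The shares of all genes with such pair counts are not given. The 95% intervals of Gata1 and Gata2, -0.36 to -0.03 and -0.37 to -0.07, lie below 0 before any adjustment over genes, and neither gene passed after it. Gata1 passed without the control library labelled withdrawal of replicate 1 (adjusted p 0.0171), and without that library it also passed at day 13 labelled withdrawal, at -0.61 (adjusted p 0.0228). Without all libraries of replicate 1, Gata1 passed in the mean, at -0.28 (adjusted p 0.00879), and labelled withdrawal, at -0.60 (adjusted p 0.0107). Gata2 passed in the mean without that control library (adjusted p 0.0366), without control day 2 replicate 2 (adjusted p 0.0164) or without miR-125b day 2 replicate 3 (adjusted p 0.0453).

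Among the DNA-binding partners, Tal1 (-0.11 ± 0.0402, adjusted p 0.123) and Fli1 (-0.13 ± 0.0471, adjusted p 0.109) were each higher with miR-125b in only 2 of 12 pairs. Tal1 passed without miR-125b day 10 replicate 2 (adjusted p 0.0499), and Fli1 without the miR-125b library labelled continued of replicate 2 (adjusted p 0.0445). Runx1 was higher in 10 of 12 pairs, and the shares of all genes with these pair counts are not given. Its blocked mean was 0.10 ± 0.0706 (adjusted p 0.481). Lyl1 had -0.05 ± 0.0975. Among the cofactors, Zfpm1 had 0.04 ± 0.0770, Lmo2 0.07 ± 0.05 and Ldb1 0.03 ± 0.0433. Ldb1, the one with miR-125b seed sites, was thus not lower with miR-125b, and its 95% interval ran from -0.06 to 0.12.

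Time and the day 13 labels were compared next. In the fit without the block, 0 of 10 genes were called between day 10 and day 2 in control (0% of all genes) or with miR-125b (0.224%), and none between day 13 labelled continued and day 10 in control (0.0224%) or with miR-125b (3.53%). Between the day 13 labels 0 of 10 were called in either arm, as for all genes. The counts at an unadjusted p under 0.05 in this fit were 0 of 10 in each of these 6 comparisons, and DESeq2 also called 0. With the block, the unadjusted counts for the first step were 1 in control (Runx1) and 3 with miR-125b (Gata2, Lyl1 and Erg). For the second step they were 0 in control and 2 with miR-125b (Fli1 and Erg). Between the labels they were 1 in control (Zfpm1) and 1 with miR-125b (Erg). The shares of all genes at this unadjusted threshold are not given. After adjustment the blocked fit called 0 of 10 in 5 of these 6 comparisons. There it called 0.149% of all genes for the first control step, and 0.0373% and 13.4% for the second step in control and with miR-125b. Between the labels it called 0.00745% and 0.0522%. With the block Erg rose from day 2 to day 10 with miR-125b by a log2 fold change of 2.28 ± 0.601 (adjusted p 0.0401, against 0.490 without it), where 4.08% of all genes were called, 2.01% as higher. In control the same step gave -1.05 ± 0.781 (adjusted p 0.650). The difference between these steps, tested as an interaction, was 3.33 ± 0.979 and was not called (adjusted p 0.311), nor was any of the 13419 genes in that test. For Gata1 and Gata2 the steps between day 2 and day 10 were 0.21 ± 0.154 and -0.30 ± 0.144 with miR-125b and 0.20 ± 0.154 and -0.14 ± 0.143 in control.

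In the miR-125b arm Erg was 1.19 ± 0.563 higher in the libraries labelled withdrawal than in those labelled continued (adjusted p 1.00 with the block), in 3 of 3 same-numbered pairs. Arid3a went the opposite way between those groups, as given above. The interaction of miR-125b with the label was 1.1 ± 0.999 for Erg (adjusted p 0.999).

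More of these factors differed between the replicate numbers than between treatments. In the model with group and number, 8 of the 10 genes differed between numbers, where 38.4% of all genes did, and Tal1 (adjusted p 0.229) and Ldb1 (adjusted p 0.0912) did not pass. Gata2 averaged 869 ± 114 CPM over the 8 libraries of replicate 2 (SD) against 367 ± 84.4 in replicate 1 and 386 ± 68.0 in replicate 3. The libraries of replicate 2 had 723 to 1053 CPM, those of replicate 1 268 to 522 and those of replicate 3 309 to 500. Of all genes, 17.7% differed between numbers and were highest in replicate 2, and the share that separated without overlap is not given. The log2 difference of replicate 2 over 1 was 1.27 ± 0.0893 (adjusted p 2.37e-09). Gata1 averaged 426 ± 70.7 CPM in replicate 2, 245 ± 39.4 in replicate 1 and 305 ± 47.4 in replicate 3, a log2 difference of 0.79 ± 0.0951 over replicate 1.

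Runx1 followed the same order, with 216 ± 13.5 CPM in replicate 2 against 118 ± 26.5 and 140 ± 13.0 in replicates 1 and 3, and Fli1 with 150 ± 16.1 against 114 ± 14.8 and 116 ± 8.51. Gata1, Gata2, Runx1 and Fli1 were each highest in replicate 2 in 8 of 8 groups, and the share of all genes with this pattern is not given. Zfpm1 and Lyl1 went the other way, with log2 differences of replicate 2 over 1 of -0.34 ± 0.0948 and -0.41 ± 0.120, and that of Zfpm1 was -0.22 without the day 10 libraries and then did not pass. Lmo2 was lower in replicate 1 than in both others, by 0.37 ± 0.0614 and 0.34 ± 0.0613. Erg was highest in replicate 1 in 8 of 8 groups, at 5.30 ± 5.06 CPM against 1.04 ± 1.07 and 1.35 ± 1.80 in replicates 2 and 3. The 8 libraries of a number are from different groups, so these SDs include the treatment and time differences.

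**Figure D4:**
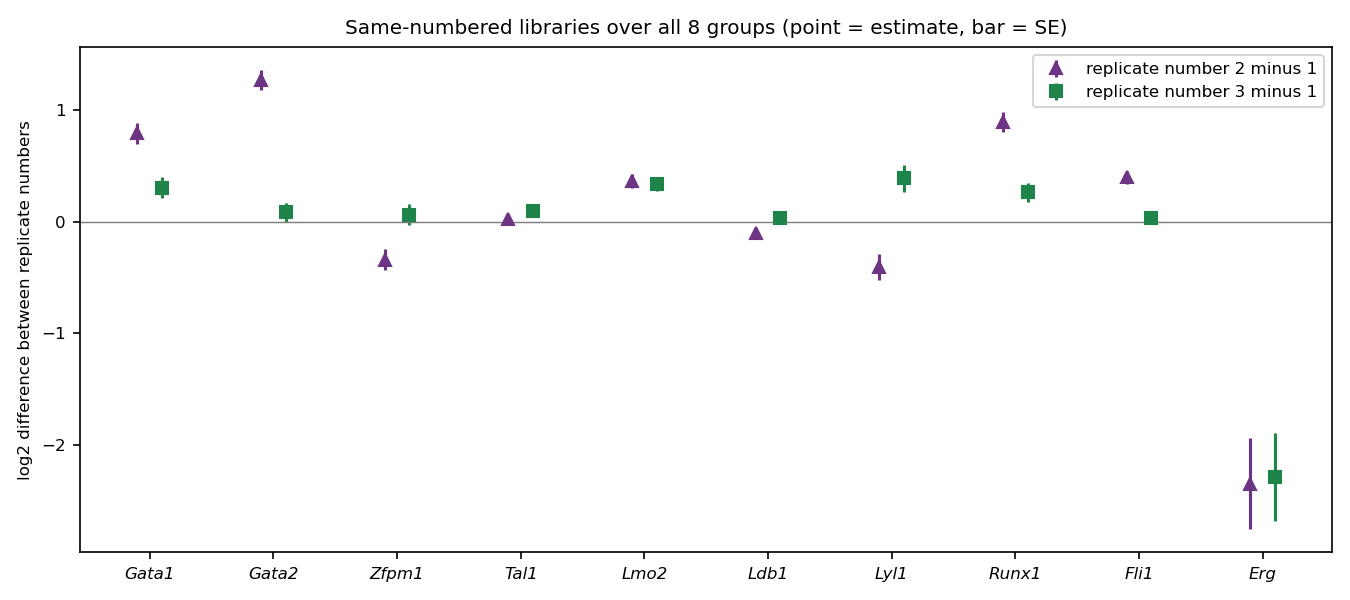
Log2 difference of replicate number 2 and of number 3 against number 1 for each gene, from the model with group and number over 24 libraries, with bars of 1 SE. Gata2 (1.27), Runx1 (0.90) and Gata1 (0.79) are highest in number 2, and Erg lies below number 1 in both (-2.35 and -2.29).

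Genes that GATA1 and its partners are known to act on also separated by number, and the lists were compared with all genes by their counts and medians. Of 22 megakaryocyte genes 21 differed between numbers, 15 of them highest in replicate 2, with a median log2 difference of 1.04 over replicate 1, against 0 for all genes, of which 17.7% were highest there. Ppbp, a platelet chemokine, had 2.92, Clec1b, a platelet receptor, 2.36 and Tubb1, the platelet tubulin, 2.21. Of 15 tested mast cell and eosinophil genes 13 differed, 10 of them highest in replicate 2, with a median of 1.37. These included Tpsb2, a tryptase, at 2.75, and Mitf, a mast cell transcription factor, at 1.97, whereas Gzmb was at -2.86.

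Erythroid genes went the opposite way. Of 23 tested 18 differed, 15 of them lowest in replicate 2, with a median of -0.40 (16% of all genes were lowest there), and Klf1, the erythroid activator, had -1.17. Genes of the GATA1 and TAL1 cofactor complexes, such as those of the NuRD complex and the E proteins, moved little, with 7 of 26 called and a median of -0.03. Summed markers moved with the numbers as well: 6 megakaryocyte markers had medians of 3043, 5202 and 3674 CPM in replicates 1, 2 and 3, 6 mast cell markers 56.4, 230 and 56.4, and 6 erythroid markers 102, 71.0 and 123. Of markers of other cells, 6 endothelial genes had 8.0, 22.1 and 6.60 CPM, mostly Tek and Kdr, and 6 stromal genes 50.2, 11.3 and 40.2 CPM, mostly Pdgfrb, with Dcn at 0 in all 24 libraries. Their part in the differences between numbers was not tested.

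**Figure D5:**
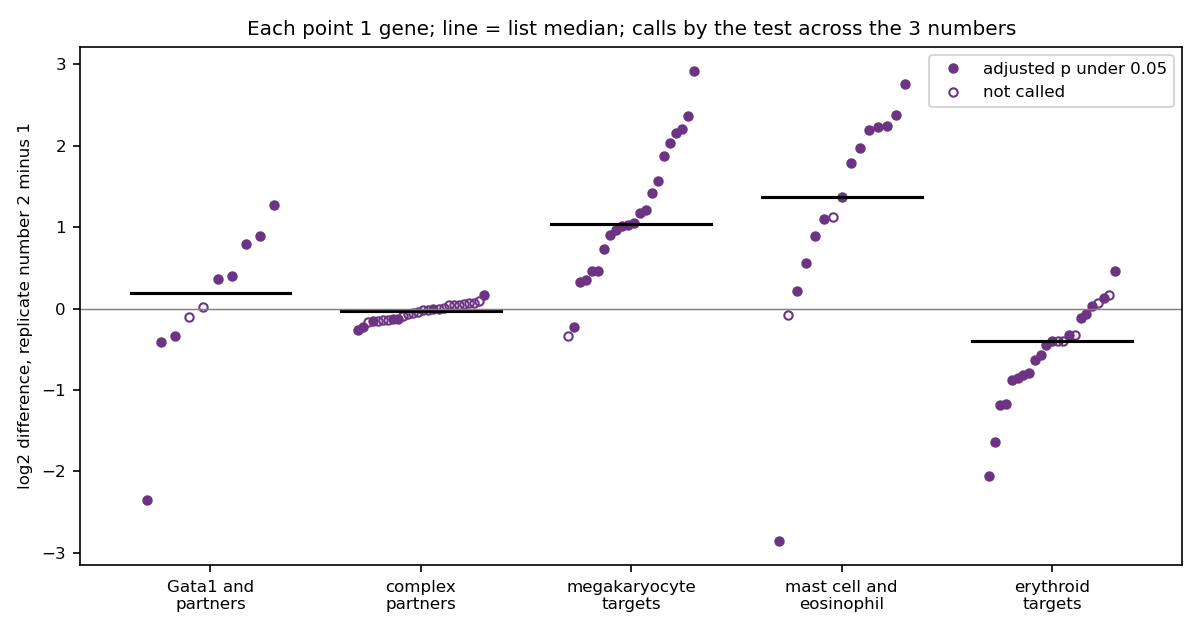
Log2 difference of replicate number 2 over 1 for the 10 factors and for the tested genes of 4 lists, 1 point per gene, filled where the test across the 3 numbers passed, with the list median as a line. Megakaryocyte (median 1.04) and mast cell genes (1.37) lie mostly above 0, erythroid genes (-0.40) mostly below, and cofactor genes (-0.03) close to it.

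The same lists were then read for miR-125b, averaged over the 4 conditions, where 1.28% of all genes were called without the block and 6.39% with it. Of the 26 tested cofactor genes 0 were called in either fit. At day 10, where 0.872% of all genes were called without the block and 8.63% with it, 1 of the 26 was called with the block, Cbfa2t3, a corepressor bound to TAL1, which fell by 0.36 on the log2 scale (adjusted p 0.0389, against 0.146 without it). Of 11 tested RUNX and ETS relatives, Runx3 rose at day 10 from 167 ± 11.2 to 246 ± 49.8 CPM. Its log2 fold change there was 0.56 ± 0.123 in the fit without the block (adjusted p 0.0394). In every other condition the mean of Runx3 was higher in control than in the miR-125b arm. These control and miR-125b means were 203 ± 4.23 and 187 ± 17.7 CPM (day 2) and 171 ± 4.23 and 167 ± 16.4 (labelled continued). Labelled withdrawal they were 199 ± 23.8 and 158 ± 16.6. None of the 11 was called in those conditions in either fit. Over the 4 conditions 2 of the 11 were called with the block. Ets2 fell by 0.52 (adjusted p 0.00461) and Elk3, an ETS repressor, rose by 0.19 (adjusted p 0.0170), against 0.204 and 0.392 without it.

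Of 19 other tested blood transcription factors, 1 rose and 1 fell without the block and 2 rose and 2 fell with it. Cebpe, a granulocyte factor, rose by 2.69 ± 0.549 (adjusted p 0.0160 without the block) from group means of at most 0.169 CPM in control. Cebpa, which directs granulocyte and monocyte fate, rose by 1.13 ± 0.171 with the block (adjusted p 0.000362, against 0.311). Zbtb7a fell by 0.30 (adjusted p 0.0306 without the block), and Mafk, a partner of NF-E2, fell by 0.18 with it (adjusted p 0.0245, against 0.517). The neutrophil marker levels given above moved with these factors too, and their part was not tested.

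Of 22 megakaryocyte genes 1 rose and 0 fell without the block, and 2 rose and 5 fell with it. Selp, encoding P-selectin, rose by 1.54 ± 0.294 (adjusted p 0.00966 without the block). With the block Ppbp rose by 0.99 (adjusted p 0.00975, against 0.746), while Treml1, a platelet receptor, fell by 0.66 (adjusted p 0.0121, against 0.691) and Gp1bb, of the von Willebrand factor receptor, fell by 0.53 (adjusted p 0.00215, against 0.512). The list median was -0.16 against -0.01 for all genes in the mean, but the conditions differed in value: it was 0.05 at day 2 and 0.03 at day 10, with 7 and 10 of 22 genes lower, and -0.32 and -0.54 at day 13 labelled continued and withdrawal, with 18 of 22 lower in each. Labelled withdrawal, 0 of the 22 were called without the block and 6 fell with it (0.119% and 1.86% of all genes called). The differences between conditions were not tested for this list. Of 23 tested erythroid genes 0 were called without the block, and 1 rose and 3 fell with it. Hba-a1 fell by 0.92 (adjusted p 0.00361, against 0.172), Kel, a blood group protein, by 0.42 and Fech, of heme synthesis, by 0.28, while Rhag rose by 0.51.

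Of 11 tested genes that GATA1 is known to repress, 0 were called without the block and 2 with it. Cdk6, a cell cycle kinase, rose by 0.45 ± 0.0638 (adjusted p 0.000196, against 0.0945) and E2f2 fell by 0.26 (adjusted p 0.0121, against 0.103). Of 15 tested mast cell and eosinophil genes 2 rose without the block and 3 with it. Prss34, a protease known from basophils, had a mean of 9.0 ± 2.34 CPM with miR-125b at day 10 against 0.527 ± 0.675 in control and rose by 4.05 ± 0.601 over the 4 conditions (adjusted p 0.00238). Mcpt8, also known from basophils, rose by 3.38 ± 0.540 (adjusted p 0.00317), and Prg2, of eosinophil granules, rose by 2.14 with the block (adjusted p 0.0495, against 0.112).

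Because GATA1 and GATA2 share sites, their ratio was formed in each library. It lay between 0.440 and 0.983 Gata1 CPM per Gata2 CPM, with medians of 0.650, 0.489 and 0.838 in replicates 1, 2 and 3. The mean log2 ratio with miR-125b minus control was 0.10 at day 2, 0.26 at day 10, -0.16 at day 13 labelled continued and -0.10 labelled withdrawal. The exact two-sided permutation p was 0.5, 0.5, 0.6 and 0.9, or 0.8, 0.8, 0.8 and 0.9 after Benjamini-Hochberg adjustment over the 4, and the smallest that 3 against 3 libraries allow is 0.1, so no value could pass. The exact sign-flip permutation of same-numbered pairs gave p of 0.25, 0.25, 0.25 and 0.75, and 0.25 is the smallest that 3 pairs allow. The ratio was higher with miR-125b in 3 of 3 same-numbered pairs at day 2 and at day 10, in 0 of 3 at day 13 labelled continued and in 1 of 3 labelled withdrawal. The pair of replicate 1 at day 13 labelled continued was nearly equal, at 0.663 with miR-125b and 0.664 in control.

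The genes whose levels were most like those of a factor were taken by Pearson correlation of log2 CPM over the 24 libraries, among 9821 genes. They were selected for this value, so no test applies, and the libraries share the replicate numbers that separate most of these genes. For Gata1 they were Lat (r = 0.952, Spearman's rho = 0.945), an adaptor of platelet and T cell receptors, Dhrs7 (0.931), Cd63 (0.920), Alox5 (0.913) and Tmem9b (0.910). Lat was 0.89 higher in replicate 2 than in 1 on the log2 scale, close to the 0.79 of Gata1. For Gata2 they were Gm10524 (0.966), BC080696 (0.959), Pkd1l2 (0.958), Itgb6 (0.951) and Tubb2a (0.948). For Fli1 they were Inpp5d (0.915), Dop1a (0.908), Fry (0.893), Scyl2 (0.891) and Eif5a2 (0.888).

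For Erg, added after its values were seen, they were Cbx6 (0.820), Elk3 (0.801), Mpo (0.799), Dvl2 (0.793) and Cebpa (0.774). Mpo, a neutrophil granule enzyme, reached 28.5 CPM, and Elk3 and Cebpa are among the genes called with miR-125b above. Erg itself ranged from 0 to 13.6 CPM over the same libraries.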

How the data were processed

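RNA sequencing libraries from 24 samples were deposited by the authors as 1 table of whole-number read counts per Ensembl gene, not normalized and with replicates not pooled. The tools fastp, HISAT2 2.0.5 and featureCounts and the build mm10 are named per the submitters' processing notes, without roles, annotation release or strand setting. Columns were matched through the sample descriptions, and 0 were left over. Gene names came from GENCODE M21 (GRCm38), which matched 46488 of 47069 identifiers, and at most 0.0638% of a library's counts had no name. Library totals were 14694900 to 23755245 counts and TMM factors 0.932 to 1.04.

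The 10 genes and the gene lists were chosen with earlier results of these data known. edgeR 4.0.16 (R 4.3.3) was fitted to all 24 libraries with 1 coefficient for each of 8 groups: filterByExpr kept 13419 genes, glmQLFit was robust, and p-values from glmQLFTest were adjusted (Benjamini-Hochberg) across these genes with a threshold of 0.05. There were 13 comparisons, among them interactions of miR-125b with time and with the day 13 label. Standard errors derive from the F statistic, and 95% intervals use 14 residual degrees of freedom.

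The labels share replicate numbers 1 to 3 between groups. All 84 same-numbered pairs of libraries from different groups had correlated deviations from their group means (0.163 to 0.781, median 0.475; different numbers, median -0.304), so the numbers were taken to pair the libraries and blocked values are given where they change a call. The count fits were tested on simulated data. The list genes named were up to 4 called per list and miR-125b comparison, by the largest log2 fold change. The cell markers comprised hepatoblast, macrophage, neutrophil, endothelial, stromal, lymphoid, megakaryocyte, erythroid and mast cell lists. Exact permutation tests were used for the Gata1 to Gata2 ratio. Alternatives were the block, DESeq2 1.42.0, other size factors, no filter, another quasi-likelihood estimate, compared groups only and leaving out libraries. Promoters and the microRNA came from RefSeq, and 3′ UTRs from the annotation's transcripts.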

Additional observations from a re-analysis of the deposited data

Results flagged for a closer look

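The miR-125b minus control difference in the log2 ratio of Gata1 to Gata2 was positive in every same-numbered pair at day 2 and at day 10. This difference was negative in every pair at day 13 labelled continued. It was 0.10 at day 2, with 3 of 3 pairs higher, and -0.16 at day 13 labelled continued, with 0 of 3 higher, so these conditions lay 0.253 apart. At day 10 it was 0.26, with 3 of 3 pairs higher, which lay 0.416 from the value at day 13 labelled continued. The differences between conditions were not tested, and the exact permutation test of a single condition could not pass at this number of libraries. The negative pair of replicate 1 at day 13 labelled continued was close to 0, with ratios of 0.663 and 0.664.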

How the results depend on the processing

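With the replicate block, 1 of the 10 genes (Erg) was called at day 10, at day 13 labelled withdrawal, in the mean of the 4 conditions and from day 2 to day 10 with miR-125b, against 0 without it, and the block changed no other call among the 10 in the 13 comparisons. DESeq2 called 1 in the mean, and so did the unblocked fit without control day 2 replicate 1. When 1 library was left out of the blocked fit, 1 to 3 genes were called in the mean, 0 to 1 labelled withdrawal and 1 at day 10. The 3 were Erg, Gata1 and Gata2. Without every library of replicate 2, the blocked fit called 2 at day 10 (Erg and Gata2), and without replicate 1 it called 2 in the mean (Erg and Gata1) and 1 labelled withdrawal (Gata1). Log2 differences below changed sign but were called under no alternative with the opposite sign, and the cause was not tested. Leaving out 1 library without the block, the miR-125b difference ranged from -0.20 to 0.033 for Gata1, -0.48 to 0.081 for Gata2 and -1.36 to 3.28 for Erg at day 2. At day 10 it was -0.33 to 0.14 for Gata1 and -0.99 to 0.25 for Gata2. At day 13 labelled continued it was -0.47 to 0.12 for Gata1 and -0.59 to 0.57 for Gata2, and labelled withdrawal -0.94 to 0.39 for Gata2. In the mean it was -0.028 to 0.090 for Zfpm1, -0.14 to 0.044 for Lyl1 and -0.031 to 0.19 for Runx1. Erg from day 2 to day 10 in control ranged from -2.39 to 1.44. The log2 ratio of Gata1 to Gata2 ranged from -0.016 to 0.24 at day 2, -0.33 to 0.057 at day 13 labelled continued and -0.31 to 0.16 labelled withdrawal. Leaving out a whole replicate number gave 0.011 for Gata2 at day 13 labelled continued (block, without 1). In the mean it gave -0.034 for Zfpm1 with and without the block (without 2), -0.0033 and -0.0034 for Ldb1 (without 1) and 0.12 and 0.10 for Lyl1 (without 3). In the blocked mean, Ldb1 was -8.92e-05 without the control library labelled withdrawal of replicate 1, and Lyl1 was 0.0034, 0.0018 and 0.0031 without replicate 3 of miR-125b day 10, control day 13 labelled continued and control labelled withdrawal. The difference of replicate 2 over 1 for Tal1 was -0.011 without the day 10 libraries and -0.0068 without those labelled withdrawal. Counts of called genes over all genes moved more. At day 10 there were 117, against 1158 with the block, 573 by DESeq2, 65 without the filter and 0 when only the compared groups were fitted. Labelled withdrawal there were 16, against 249, 90, 10 and 0, and 31 with the newer quasi-likelihood estimate. In the mean there were 172, against 858 with the block and 357 by DESeq2. From day 2 to day 10 with miR-125b there were 30, against 547, 304, 18 and 4, and 66 with the newer estimate. From day 10 to day 13 labelled continued there were 474 with miR-125b, against 1800, 1002, 267 and 2, and 3 in control, against 5 with the block, 20 by DESeq2, 0 in the compared groups and 1 with the newer estimate. Where the unblocked fit called 0, control day 10 against day 2 gave 20 with the block, 40 by DESeq2 and 1 without the filter, and no other comparison gave more than 8. Leaving out 1 library without the block moved these counts to 1 to 799 at day 10, 5 to 15 labelled withdrawal, 81 to 260 in the mean, 4 to 241 from day 2 to day 10 with miR-125b, and, to day 13 labelled continued, 0 to 1083 with miR-125b and 0 to 2 in control. The highest counts at day 10, in the mean and in both steps with miR-125b came without miR-125b day 10 replicate 2. With 0 to 26 Erg counts in the control libraries from day 10 on, its fold changes are the least precise of the 10.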

Other observations

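The lymphoid marker list was carried mostly by Ptprc, the pan-leukocyte gene CD45, at a median of 53.7 CPM, while Pax5 and Cd3e had no count in 18 and 23 libraries. Its summed level at day 10 was 68.4 to 88.8 CPM with miR-125b and 27.4 to 62.9 CPM in control. The summed macrophage level at day 10 was 4.76 to 8.24 CPM against 4.06 to 4.61 CPM, mostly Cd68, with Vcam1 at 0 in 24 libraries. Afp, an early liver cell gene, was the one hepatoblast marker present in every library, at 1.35 to 4.44 CPM.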
